A study of Mus musculus with 16 samples.

Results

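The genes described here are 10 members of the matrix metalloproteinase system, measured in mouse lung endothelial cells (ECs). They are the metalloproteinases Mmp2, Mmp8, Mmp9, Mmp12, Mmp14, Mmp15 and Mmp19 and the tissue inhibitors of metalloproteinases Timp1, Timp2 and Timp3, taken by gene name from a table of 43346 genes, with each name matching 1 row. RNA was sequenced in 16 libraries of freshly sorted lung ECs: 5 of the group Young Sham, 4 of Young Bleo, 3 of Aged Sham and 4 of Aged Bleo. All mice were FVB and, per the study's methods, were of both sexes and carried a GFP reporter driven by the collagen gene Col1a1. The 2 age groups were 2 and 18 months old. Bleo mice had bleomycin, a drug that injures the lung and leads to fibrosis, placed in the trachea, and sham mice had PBS. Per the study, ECs were taken weeks after this, in what it calls the early resolution phase of the fibrosis. ECs were sorted as positive for CD31 and negative for CD45, EpCAM and the GFP reporter, so that leukocytes, epithelium and collagen-producing cells should be depleted. Libraries are named by the number in their titles, such as Aged Bleo 1. Per the study, the RNA came from ECs of lungs also used for chromatin profiling, where each sample was an individual mouse, and p-values measure the spread between these libraries.

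Metalloproteinases are zinc-dependent enzymes that cut collagens, laminins, elastin and other proteins of the extracellular matrix and the cell surface. Most are made as inactive proenzymes and are switched on when a propeptide is removed. TIMP proteins bind to the catalytic site and block it, so net activity depends on both families as well as on activation, which RNA does not measure. In blood vessels these enzymes open the basement membrane during sprouting, and in the lung they take part in both the laying down and the clearing of scar tissue.

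Depth ranged from 20.9 to 71.0 M (mega) counts per library. The endothelial markers Pecam1 and Cdh5 were abundant in all 16 libraries, at 48835 to 88941 and 26994 to 43197 normalized counts. The summed level of 14 macrophage markers ranged from 9211 to 11030 normalized counts in Young Sham, 22584 to 59407 in Young Bleo, 12247 to 32556 in Aged Sham and 33359 to 213172 in Aged Bleo. All 14 had counts in the series, and within Aged Bleo the sum was 213172 in library 1, 130428 in library 2, 51398 in library 3 and 33359 in library 5. DESeq2 and edgeR each called 8 of the 14 higher and 1 lower in Young Bleo than in Young Sham, where 13.9% and 9.78% of all genes were called. The marker that fell was Mertk, an efferocytosis receptor, at 5111 ± 493 normalized counts (SD, n = 5) in Young Sham and 2027 ± 1122 (SD, n = 4) in Young Bleo. In Aged Bleo against Aged Sham DESeq2 called 9 higher and edgeR 2, with none lower, against 5.83% and 0.797% of all genes. Mertk and Lyz2, which encodes lysozyme, made up most of the macrophage sum in Young Sham, and in the other groups Lyz2 was its main part. Lyz2 ranged from 2724 to 4799 normalized counts in Young Sham and from 16608 to 50201 after bleomycin, and in aged mice from 6983 to 22089 and from 22333 to 161722. The 5 mesothelial markers, at 406 to 563 summed normalized counts in Young Sham and 1621 to 4740 in Young Bleo, were all called higher in Young Bleo as well. In aged mice their sum was 1259 to 4165 in Aged Sham and 361 to 1980 in Aged Bleo. DESeq2 called 3 of the 5 higher in Aged Sham than in Young Sham and edgeR 2, against 3.35% and 0.862% of all genes, and neither called any in the aged response. In sorted bulk RNA, fewer cells of a type and less RNA per cell cannot be told apart. The deposited table has no strand information, so reads where 2 genes overlap cannot be assigned with certainty.

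Promoter sequence was available for 7 of the 10 members in the RefSeq-derived table (GRCm38.p6, the 300 bases from 250 before to 50 after a start site). The entries missing were Mmp2, Mmp9 and Mmp19. The 4 promoters printed here belong to the members with an entry that both DESeq2 and edgeR called after bleomycin in young or aged mice. Of the 2 Mmp12 start sites in the table, the one with a match to TGANTCA is printed. In each, capitals mark the letters TGANTCA, where N is any base and which is the binding sequence of AP-1 factors, and AGGAAG, a sequence bound by ETS family factors such as PEA3, searched on both strands. These 2 elements are well known from metalloproteinase and TIMP promoters, and the study's factor of interest, ERG, belongs to the ETS family.
Mmp12 (second start site, plus strand, chr9:7347124-7347423): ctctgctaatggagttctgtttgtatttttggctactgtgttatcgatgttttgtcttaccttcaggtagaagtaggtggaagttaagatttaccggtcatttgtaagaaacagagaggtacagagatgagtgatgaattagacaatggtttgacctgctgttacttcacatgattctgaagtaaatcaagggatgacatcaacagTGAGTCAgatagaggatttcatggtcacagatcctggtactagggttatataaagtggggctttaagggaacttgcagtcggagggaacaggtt
Mmp14 (plus strand, chr14:54431348-54431647): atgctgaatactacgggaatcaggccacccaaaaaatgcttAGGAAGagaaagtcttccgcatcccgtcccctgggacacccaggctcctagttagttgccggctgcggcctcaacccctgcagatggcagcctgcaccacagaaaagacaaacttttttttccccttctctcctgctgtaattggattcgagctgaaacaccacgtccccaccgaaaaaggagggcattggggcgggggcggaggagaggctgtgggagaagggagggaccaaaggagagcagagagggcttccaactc
Timp1 (plus strand, chrX:20869916-20870215): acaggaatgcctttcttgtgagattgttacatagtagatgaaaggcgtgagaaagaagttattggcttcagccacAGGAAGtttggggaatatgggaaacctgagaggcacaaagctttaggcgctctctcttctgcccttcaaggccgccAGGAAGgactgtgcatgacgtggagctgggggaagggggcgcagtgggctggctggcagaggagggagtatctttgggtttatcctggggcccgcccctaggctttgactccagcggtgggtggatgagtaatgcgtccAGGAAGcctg
Timp2 (minus strand, chr11:118355362-118355661): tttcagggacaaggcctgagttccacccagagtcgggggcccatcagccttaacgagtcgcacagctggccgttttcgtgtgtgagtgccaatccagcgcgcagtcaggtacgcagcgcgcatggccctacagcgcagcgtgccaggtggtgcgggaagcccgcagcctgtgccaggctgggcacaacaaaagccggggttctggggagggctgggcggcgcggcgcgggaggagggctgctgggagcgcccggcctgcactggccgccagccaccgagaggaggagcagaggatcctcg

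The Mmp12 promoter printed here held 1 TGANTCA match, at -44 from the start site. No other promoter among the members' 8 start sites had one, and 7.81% of all 32851 promoters of this length did. Timp1 held 3 matches to AGGAAG, at -175, -99 and 40, all on the plus strand, and Mmp14 held 1, at -209. Timp2 had no match to either sequence in this window and was rich in CG, with 25 CpG dinucleotides against 3 in Mmp12, 10 in Mmp14 and 8 in Timp1. AGGAAG was also found in Mmp8, Timp3 and the first Mmp12 start site, and it occurred in 35.4% of all promoters, so its presence here describes common letters. Of the other letters searched, GGGCGG (a GC box, in 35.7% of promoters) was found in Mmp14, Mmp15, Timp1, Timp2 and Timp3, and TATAA (24.9%) in Mmp8, Mmp12 and Timp3. The marked motifs did not overlap each other.

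Levels of different genes were compared as FPKM, which is scaled for gene length. In Young Sham, the inhibitors were far above the proteases: Timp2 was at 162 ± 17.9 FPKM (SD, n = 5) and Timp3 at 38 ± 5.30. Mmp15 followed at 8.44 ± 1.58, Mmp14 at 7.54 ± 1.10 and Mmp2 at 4.52 ± 1.32 FPKM. Mmp19 lay at 1.55 ± 0.23 and Timp1 at 1.40 ± 0.258 FPKM. Mmp15 and Mmp14 overlapped in their spread, as did Mmp19 and Timp1, and their order is not resolved. Mmp12 averaged 0.00174 FPKM, and Mmp8 and Mmp9 were at 0 in all 5 libraries.

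**Figure D1:**
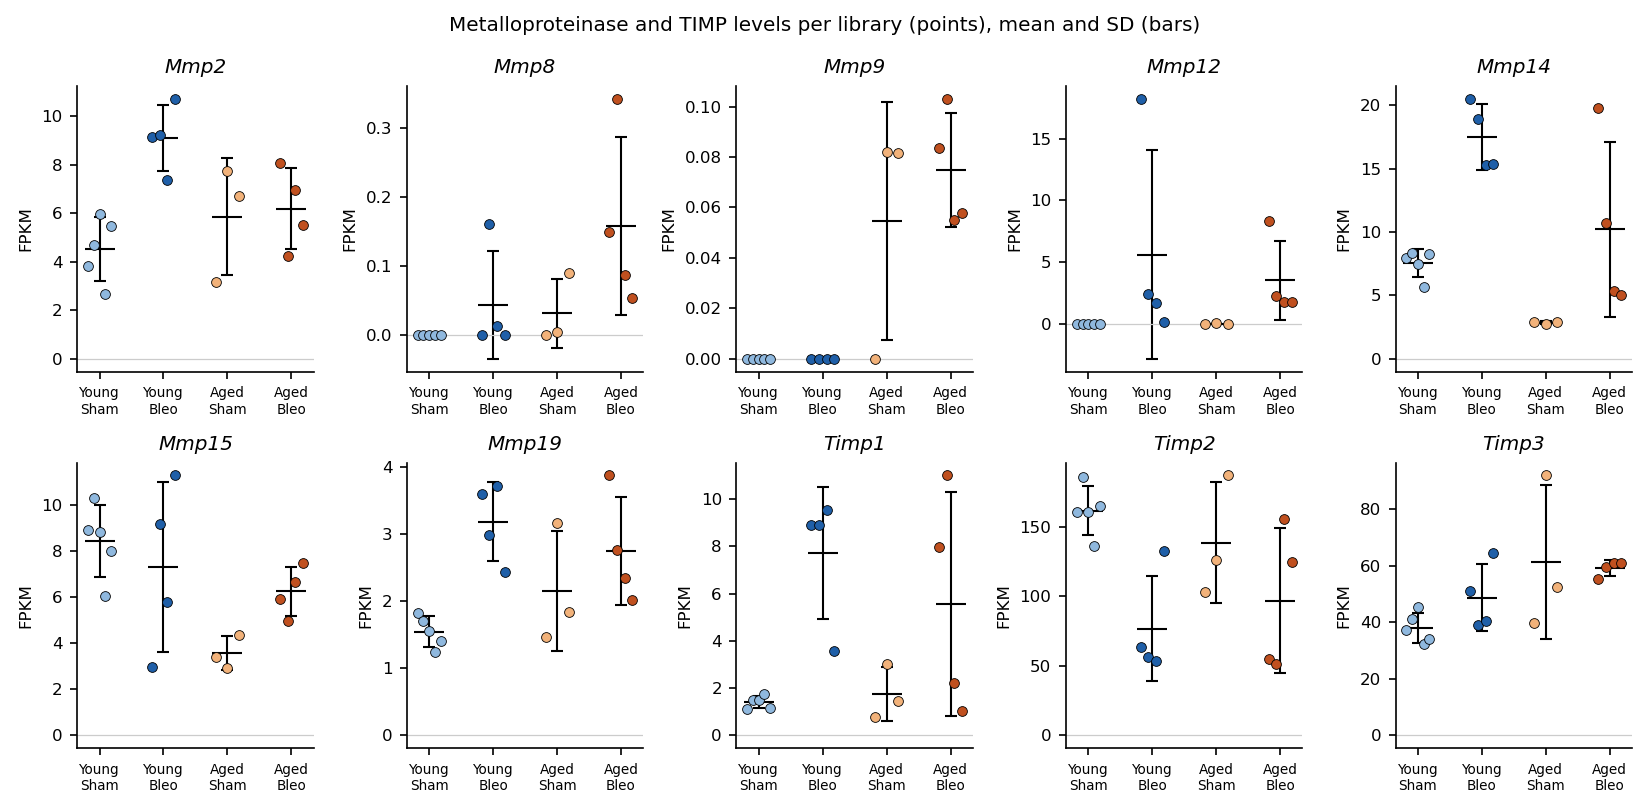
Level of each member in FPKM (vertical axis, linear, own scale per panel) in the 16 libraries, in 4 groups; each point is a library, the horizontal mark is the group mean and the bar is 1 SD. Timp2 reached 187 FPKM, whereas Mmp9 stayed at or under 0.103 FPKM and was at 0 in all young libraries.

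The first comparison asked how young ECs respond to bleomycin. DESeq2 called 7 of the 10 members, 6 higher and 1 lower in Young Bleo than in Young Sham, where a call needs an adjusted p no higher than 0.05 and a log2 fold change no smaller in size than 0.5. Over all genes tested, 13.9% were called, 7.57% higher and 6.35% lower. With edgeR 6 members were called, against 9.78% of all genes. Mmp2, Mmp12, Mmp14, Mmp19 and Timp1 were higher and Timp2 was lower by both tools. Mmp8 was called by DESeq2 only, Mmp15 and Timp3 by neither, and Mmp9 had no count in any young library.

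Mmp14 (chr14:54431604-54441258) encodes a membrane-anchored collagenase that also activates pro-MMP2 and is needed for endothelial sprouting. Its normalized counts were 2087, 2102, 1911, 1576 and 2201 in Young Sham and 5324, 4915, 4124 and 3739 in Young Bleo. Every Young Bleo library was above every Young Sham library. On the log2 scale the rise was 1.20 (SE 0.318, adjusted p = 0.0027, edgeR adjusted p = 0.021) and the call held whichever library was left out. Mmp14 is also on the study's own gene lists, which were chosen on these libraries, so its change is not independent evidence of those lists.

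Mmp2 (chr8:92827328-92853417), the gelatinase that MMP14 activates together with TIMP2, moved the same way in young mice. It had 1176, 1380, 1772, 866 and 1706 normalized counts in Young Sham and 2776, 2794, 2320 and 3053 in Young Bleo. The groups did not overlap, and the log2 fold change was 0.99 (SE 0.258, adjusted p = 0.0022, edgeR adjusted p = 0.018). Mmp2 is also a product of fibroblasts and pericytes. The summed level of 8 fibroblast markers was 9742 to 19956 normalized counts in Young Sham and 9310 to 15142 in Young Bleo, and that of 8 pericyte and smooth muscle markers was 7978 to 19047 and 3102 to 7002. The macrophage and mesothelial sums given above were higher in every Young Bleo than in every Young Sham library. The part of any of these cells in the Mmp2 values was not tested.

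Mmp19 (chr10:128790953-128800824), a secreted enzyme that cuts basement membrane proteins, ranged from 453 to 626 normalized counts in Young Sham and from 779 to 1313 in Young Bleo. This was a rise of 1.03 on the log2 scale (SE 0.251, adjusted p = 0.00092, edgeR adjusted p = 0.013). One end of Mmp19 overlaps Tmem198b in the deposited coordinates (chr10:128800036-128804370). Tmem198b averaged 1219 ± 212 normalized counts (SD, n = 5) without and 2095 ± 391 (SD, n = 4) with bleomycin in young mice. Without strand the share of reads that belongs to each gene is not known.

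Timp1 (chrX:20870166-20874735) is the inducible inhibitor, known to rise with injury and fibrosis. Normalized counts were 101, 129, 131, 165 and 106 in Young Sham and 793, 792, 881 and 298 in Young Bleo. Young Bleo 20 was the lowest of the injured young libraries and still above all sham libraries. Timp1 rose by 2.45 on the log2 scale (SE 0.549, adjusted p = 0.00024, edgeR adjusted p = 0.013). Timp1 lies within Syn1, which had at most 32.1 normalized counts in any library.

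Timp2 (chr11:118301069-118355740), the inhibitor that also helps MMP14 to activate pro-MMP2, was the member that fell. BC100451, which overlaps it, had at most 166 normalized counts. For Timp2, normalized counts were 63515, 70568, 61229, 56855 and 66063 in Young Sham and 24970, 21998, 21691 and 48642 in Young Bleo. Young Bleo 20 was again closest to the sham libraries, and the groups did not overlap. Its log2 fold change of -1.12 was called by both tools (SE 0.311, adjusted p = 0.0044, edgeR adjusted p = 0.034). This was the only lower call among the members, and it ended with limma-trend on log2(FPKM + 0.1) and no filter (adjusted p = 0.06). Of 10 endothelial markers, both tools called 2 lower and 2 higher in Young Bleo, against 13.9% of all genes by DESeq2 and 9.78% by edgeR. Cldn5, a tight junction protein, and Kdr, the main VEGF receptor, were lower, and the log2 fold change of Cldn5 was -0.92. The transcription factor Erg and the sialomucin Emcn were higher, with log2 fold changes of 0.69 and 0.54. Kdr had 89690 to 134579 normalized counts in Young Sham and 19328, 23272, 22103 and 70375 in Young Bleo 17, 18, 19 and 20, a change of -1.64 on the log2 scale (SE 0.398, adjusted p = 0.00081, edgeR adjusted p = 0.023). Pecam1 had 57489 to 88941 in Young Bleo and 61382 to 83053 in Young Sham. The part of a change in the make-up of the sorted cells in the fall of Timp2 was not tested.

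Mmp12 (chr9:7344381-7369499), macrophage elastase, had 3 counts in Young Sham 23 and 0 in the other Young Sham libraries. In Young Bleo it had 13165, 1732, 1264 and 140 normalized counts. The Young Bleo mean lay at least 1139-fold above a floor of 3 counts per library, and at least 292-fold higher without Young Bleo 17, the highest library (DESeq2 adjusted p = 2.1e-10, edgeR adjusted p = 0.001). With limma voom Mmp12 was not called (adjusted p = 0.231). In the plot of member levels against macrophage markers, Young Bleo 20 was the lowest of the 4 Young Bleo libraries both in Mmp12 and in the marker sum (22584 normalized counts). Young Bleo 17 had far more Mmp12 than Young Bleo 18 with a similar marker sum (56027 and 59407). Mmp12 overlaps Mmp1b, which had no count in any library.

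Mmp8 (chr9:7558429-7568486), neutrophil collagenase, had 0 counts in all Young Sham libraries and 0, 39.5, 3.31 and 0 normalized counts in Young Bleo. The DESeq2 call (adjusted p = 0.025) rested on Young Bleo 18 and was lost without it (adjusted p = 0.533), and edgeR gave an adjusted p of 0.076. Mmp15 (chr8:95352268-95374293), a membrane-anchored relative of MMP14, ranged from 2816 to 4372 normalized counts in Young Sham and from 1294 to 4589 in Young Bleo. Its log2 fold change was -0.24, with a 95% interval of -0.78 to 0.30. Timp3 (chr10:86300372-86349506), which binds to the matrix and also blocks VEGF signaling through KDR, ranged from 28160 to 36073 in Young Sham and from 31838 to 49263 in Young Bleo. Its log2 fold change was 0.33 (95% interval -0.07 to 0.73).

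**Figure D2:**
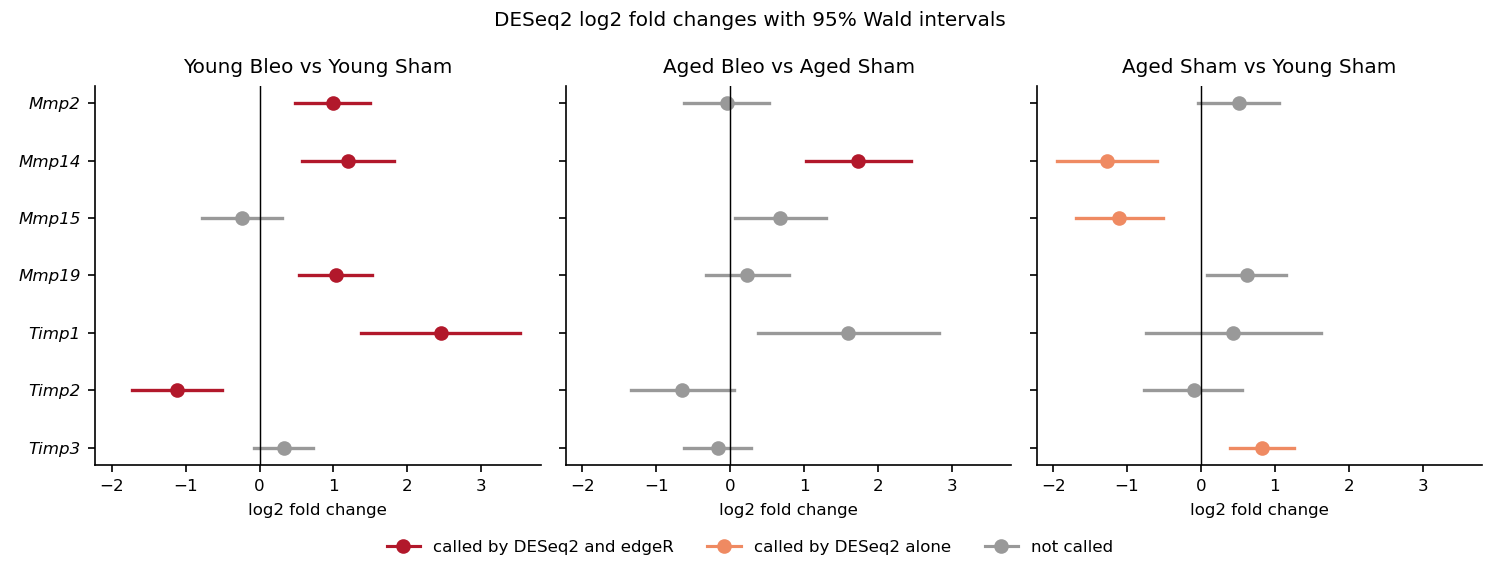
DESeq2 log2 fold change (horizontal axis) of the 7 members with counts in every library, for the bleomycin response in young mice, that in aged mice and the age difference between sham groups; lines are 95% Wald intervals and color gives the call. In young mice 5 of these members were called by both tools, in aged mice Mmp14 was, and between sham groups none was.

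The second comparison asked the same of aged ECs. DESeq2 called 2 members higher in Aged Bleo than in Aged Sham, against 5.83% of all genes, and edgeR called the same 2, against 0.797% of all genes. They were Mmp12 and Mmp14.

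In aged mice, Mmp14 had 879, 790 and 795 normalized counts in Aged Sham and 5196, 3033, 1371 and 1302 in Aged Bleo 1, 2, 3 and 5. All 4 injured libraries were above all sham libraries, and libraries 1 and 2 were well above 3 and 5. Mmp14 rose by 1.73 on the log2 scale (SE 0.363, adjusted p = 0.00035, edgeR adjusted p = 0.044). It ranged from 1.21 to 1.96 when each library was left out and stayed called by DESeq2 throughout, while limma voom gave an adjusted p of 0.09. Libraries 1 and 2 were also those with the highest macrophage marker sums, and the part of that difference in the Mmp14 values was not tested.

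Mmp12 had 0, 39.2 and 6.40 normalized counts in Aged Sham and 6068, 1775, 1247 and 1285 in Aged Bleo. The groups were separated by a wide margin (log2 fold change 7.41, SE 1.72, adjusted p = 0.0015, edgeR adjusted p = 0.044). The log2 fold change of Mmp12 was 6.55 without Aged Bleo 1 and 9.57 without Aged Sham 14, the lowest and highest values when 1 library was left out, and DESeq2 called it each time. Here, too, limma voom did not call the gene (adjusted p = 0.408). Cd68, a lysosomal macrophage marker, had 7891, 5840, 1319 and 914 normalized counts in the same Aged Bleo libraries and 208, 435 and 64.9 in Aged Sham. Cd68 rose by 4.08 on the log2 scale (SE 0.778, adjusted p = 7.0e-05, edgeR adjusted p = 0.044).

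Timp1 was spread widely among injured aged libraries. It had 79.9, 299 and 134 normalized counts in Aged Sham and 715, 1067, 193 and 91.7 in Aged Bleo. Aged Bleo 3 and 5 lay within the sham range, so that the groups overlapped. The log2 fold change was 1.59 (SE 0.625, adjusted p = 0.112), and DESeq2 called it when Aged Sham 14, Aged Bleo 3 or Aged Bleo 5 was left out, with a lowest adjusted p of 0.013.

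Timp2 showed the opposite arrangement. Its normalized counts were 47286, 54657 and 75996 in Aged Sham and 21687, 21607, 60020 and 48108 in Aged Bleo. Libraries 1 and 2 were below every sham library and libraries 3 and 5 were among them. The log2 fold change was -0.65 (SE 0.354, adjusted p = 0.310). Kdr had 21679, 23875, 74233 and 56732 normalized counts in the same Aged Bleo libraries and 63120, 55442 and 95867 in Aged Sham. Both genes were thus lowest in Aged Bleo 1 and 2. Kdr is 1 of 10 endothelial markers and was not called by edgeR in the aged response. Of the 10, DESeq2 called 1 higher and 1 lower, against 5.83% of all genes, and edgeR 1 higher, against 0.797%. The marker called higher by both was Tek (log2 fold change 1.01, SE 0.212, adjusted p = 0.00038, edgeR adjusted p = 0.044). The part of a change in the make-up of the sorted cells in these Timp2 values was not tested.

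**Figure D3:**
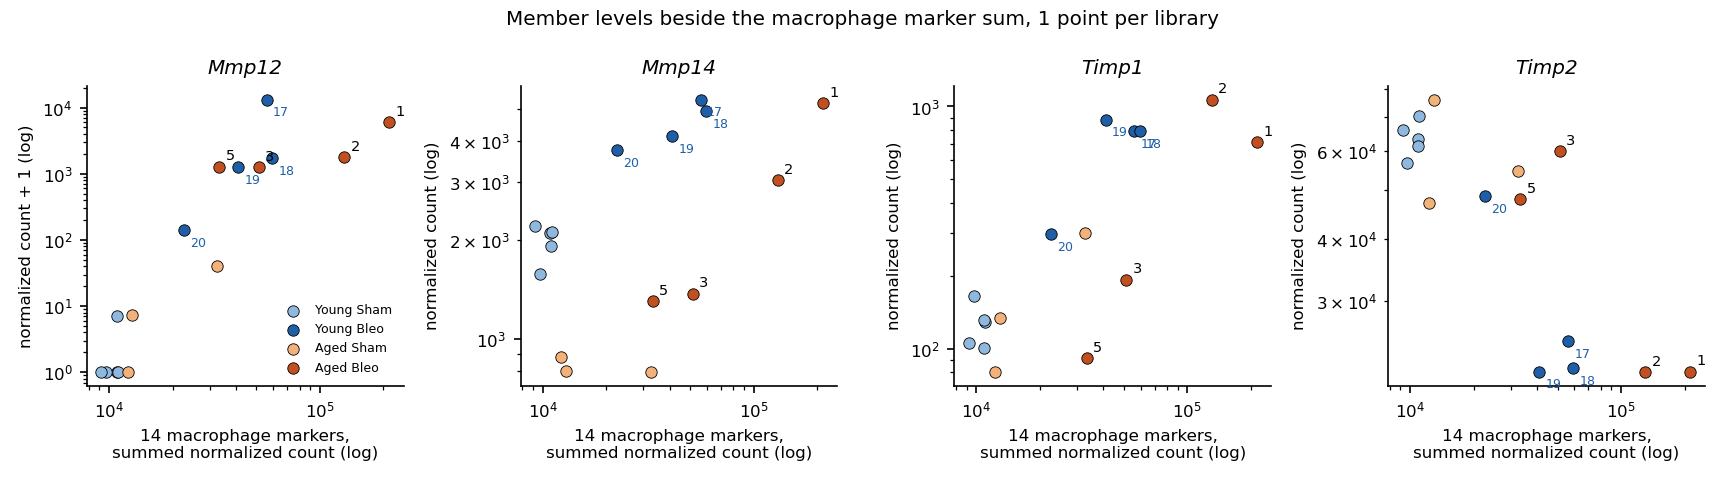
Normalized counts of Mmp12 (plus 1), Mmp14, Timp1 and Timp2 (vertical axes, log scale) against the summed normalized count of 14 macrophage markers (horizontal axes, log scale), 1 point per library, with injured libraries numbered. Aged Bleo 1 and 2 have the highest marker sums, the highest Mmp14 and Timp1 of their group and the lowest Timp2.

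The remaining members showed no call in aged mice. Mmp2 ranged from 1129 to 2620 normalized counts in Aged Sham and from 1397 to 2468 in Aged Bleo (log2 fold change -0.04, 95% interval -0.62 to 0.53). Mmp19 ranged from 591 to 1201 and from 679 to 1332 (0.23, 95% interval -0.33 to 0.79). Timp3 ranged from 38118 to 83420 and from 45382 to 52948 (-0.17, 95% interval -0.63 to 0.28). Mmp15 had 1742, 1422 and 1990 normalized counts in Aged Sham and 2601, 2355, 2866 and 3225 in Aged Bleo. These Mmp15 groups did not overlap, but the adjusted p was 0.198 with a log2 fold change of 0.68. It was called when the fit held only the aged libraries (adjusted p = 0.043) and when Young Bleo 17 was left out (adjusted p = 0.028).

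Whether the responses differed with age was tested directly as the aged response minus the young response. No member was called by DESeq2 (0.381% of all genes were) or by edgeR (0.00546%). The DESeq2 share of all genes was 1.23% without Young Bleo 20, and 0.216%, 0.233% and 0.169% without Young Bleo 17, 18 and 19. Among members with counts in every library, Mmp2 had the largest difference. Its response was lower by 1.03 on the log2 scale in aged mice (log2 difference -1.03, SE 0.391, 95% interval -1.80 to -0.27, adjusted p = 0.337). It was called only when Aged Sham 13 was left out (adjusted p = 0.049). For Mmp19 the difference was -0.80 (95% interval -1.54 to -0.05), for Mmp15 0.93 (0.11 to 1.75) and for Mmp12 -4.70 (-9.38 to -0.02), with adjusted p-values of 0.560, 0.503 and 0.612. Mmp12 was at 0 in every Young Sham library except Young Sham 23, so its difference and interval are not well determined. Without Aged Sham 14, no member had an unadjusted DESeq2 p under 0.05. The intervals for Mmp14 (-0.41 to 1.48), Timp1 (-2.49 to 0.77), Timp2 (-0.45 to 1.39) and Timp3 (-1.11 to 0.10) all included 0 and remain wide. A member called in young but not in aged mice is thus not shown to respond differently.

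Uninjured ECs of the 2 ages were then compared. DESeq2 called 4 members in Aged Sham against Young Sham, 2 higher and 2 lower, with 3.35% of all genes called. With edgeR none was called, against 0.862% of all genes. Mmp14 was lower in all 3 Aged Sham libraries than in any Young Sham library, at 822 ± 50 normalized counts (SD, n = 3) against 1975 ± 247 (SD, n = 5). The log2 fold change was -1.27 (SE 0.347, adjusted p = 0.013, edgeR adjusted p = 0.103). Mmp15 also did not overlap, at 1718 ± 285 against 3695 ± 571 (log2 fold change -1.11, SE 0.3, adjusted p = 0.012, edgeR adjusted p = 0.098). Both of the membrane-anchored proteases among the members were thus lower by DESeq2 alone, and without Aged Sham 14 the adjusted p was 0.083 for Mmp14 and 0.116 for Mmp15. Without Aged Sham 15 it was 0.054 for Mmp14. Stromal marker sums are given beside these values. That of the 8 pericyte and smooth muscle markers was 4206 to 8341 normalized counts in Aged Sham against 7978 to 19047 in Young Sham, with 2 called lower by DESeq2 and none by edgeR, against 3.35% and 0.862% of all genes. The sum of the 8 fibroblast markers was 7349 to 12896 against 9742 to 19956, with 1 called higher and 1 lower by DESeq2 and 1 lower by edgeR. Both sums overlapped between the groups. The fibroblast marker called higher was Pdgfra, a receptor for platelet-derived growth factor, at 582 to 1295 normalized counts in Aged Sham against 21.1 to 290 in Young Sham. The one called lower was Postn, a matricellular protein, at 586 to 908 against 2329 to 6191. Their part in the Mmp14 and Mmp15 values was not tested.

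Timp3 was higher in Aged Sham by DESeq2, at 38118, 83420 and 44777 normalized counts against 28160 to 36073 in Young Sham. The log2 fold change of 0.83 (SE 0.223, adjusted p = 0.011, edgeR adjusted p = 0.084) became 0.41 without Aged Sham 14 (adjusted p = 0.252). The gene lies inside Syn3 (chr10:86055125-86498896), whose normalized counts averaged 11193 ± 1262 (SD, n = 5) in the young and 23441 ± 7579 (SD, n = 3) in the aged sham libraries. Syn3 was also highest in Aged Sham 14, at 31325, and reads from the shared stretch cannot be assigned with certainty.

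Mmp9 (chr2:164940780-164955850), the gelatinase best known from neutrophils and macrophages, was at a very low level and had counts in aged libraries only. It had 0 counts in all 9 young libraries. In Aged Sham it had 0, 28 and 33 raw counts and in Aged Bleo 38, 54, 32 and 25. In 6 of 7 aged libraries it was thus above the limit of 3 counts that a count of 0 allows. Mean Mmp9 in Aged Sham was at least 5.82-fold higher than that floor in Young Sham (adjusted p = 0.006, edgeR adjusted p = 0.075), and at least 4.21-fold higher without Aged Sham 14. Without Aged Sham 14 the DESeq2 call was lost (adjusted p = 0.107), and without Aged Sham 15 DESeq2 withheld an adjusted p. It was also lost when the fit held only the sham libraries (adjusted p = 0.067).

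Injured ECs of the 2 ages were compared next. In Aged Bleo against Young Bleo, Mmp9 was the only member called by DESeq2, where 1.03% of all genes were called, and edgeR called none, against 0.0437% of all genes. The Aged Bleo mean was at least 9.62-fold above the floor in Young Bleo (adjusted p = 0.0052, edgeR adjusted p = 0.219), and at least 8.14-fold without Aged Bleo 2, which ended the call (adjusted p = 0.057). The level remained small, at 0.0749 ± 0.0229 FPKM in Aged Bleo (SD, n = 4).

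Neutrophil markers were also near the detection limit. The sum of 10 markers was 38.7 to 106 normalized counts in Young Sham, 98.8 to 152 in Young Bleo, 52.1 to 253 in Aged Sham and 113 to 562 in Aged Bleo. Camp had no count in any library and Mpo at most 1. S100a8, an alarmin of neutrophils and monocytes, had 213, 214, 39.6 and 47.0 normalized counts in Aged Bleo and at most 4.72 in Young Sham. In Aged Bleo 1 it was most of the neutrophil sum, and in Aged Bleo 2 S100a9 added 231. Means in Aged Sham and Aged Bleo were 20.4 and 17.9 for Ly6g, 52.6 and 52.3 for Ltf and 23.3 and 4.85 for Retnlg. In the aged response 5 markers were tested and neither tool called any, against 5.83% and 0.797% of all genes. Mmp9 was at 0, 32.3 and 30.2 normalized counts in Aged Sham 13, 14 and 15, where the neutrophil sum was 198, 253 and 52.1. In Aged Bleo 1, 2, 3 and 5 Mmp9 was at 29.8, 39.8, 19.2 and 20.3 and the neutrophil sum at 343, 562, 113 and 139. The library with the highest sum of each aged group thus also had its highest Mmp9, while Aged Sham 15 had Mmp9 at a sum within the Young Sham range. Leukocyte markers (Ptprc, Cd53, Laptm5 and Coro1a) summed to 709 to 1502 in Young Sham, 1720 to 2329 in Young Bleo, 2293 to 6449 in Aged Sham and 3021 to 7633 in Aged Bleo, and the part of neutrophils or other leukocytes in the Mmp9 values was not tested.

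Other members were not called between the injured groups. For Mmp14, the log2 fold change from Young Bleo to Aged Bleo was -0.73 (SE 0.335, adjusted p = 0.387). Without Aged Bleo 1 it was -1.25 and called (adjusted p = 0.00059). Mmp2 had a log2 fold change of -0.53 (95% interval -1.06 to 0.01), Timp2 of 0.37 (-0.27 to 1.01) and Timp3 of 0.33 (-0.10 to 0.75).

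Aged Bleo was also set against Young Sham, the reference used in the study, which this comparison shares with others above. DESeq2 called 6 members, all higher, against 9.72% of all genes, and edgeR 5, against 5.69%. Mmp12 was at least 725-fold above the floor (at least 401-fold without Aged Bleo 1), Mmp8 at least 11.3-fold (at least 6.60-fold without Aged Bleo 2) and Mmp9 at least 7.62-fold. Mmp8 had 36.8, 91.4, 21.0 and 13.0 normalized counts in Aged Bleo and none in Young Sham (adjusted p = 0.0018, edgeR adjusted p = 0.043). Timp1 (log2 fold change 2.03, adjusted p = 0.0045, edgeR adjusted p = 0.043) and Mmp19 (0.85, adjusted p = 0.012, edgeR adjusted p = 0.044) were higher as well. Without Aged Bleo 2 both lost the call (Timp1 log2 fold change 1.40, adjusted p = 0.115), and without Aged Bleo 1 Mmp19 did. Timp3 was called by DESeq2 alone (0.65, adjusted p = 0.018, edgeR adjusted p = 0.057), and this ended without Young Sham 24, Young Sham 25 or Aged Bleo 2. Mmp14 was not called here (0.46, 95% interval -0.16 to 1.09, adjusted p = 0.413, edgeR adjusted p = 0.428). Against uninjured young ECs, the study reports higher Mmp14 in injured young but not injured aged ECs. Timp2 (-0.75, adjusted p = 0.105, edgeR adjusted p = 0.180) was called only without Young Bleo 20 or Aged Bleo 3.

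Summed per length, inhibitor transcripts exceeded protease transcripts in every library. In sham mice the 3 TIMPs summed to 201 ± 21.2 FPKM (young, SD, n = 5) and 202 ± 51.3 FPKM (aged, SD, n = 3). After bleomycin they summed to 133 ± 46.2 FPKM (young, SD, n = 4) and 162 ± 49.7 FPKM (aged, SD, n = 4). The 7 metalloproteinases summed to 22 ± 3.73 (Young Sham), 42.8 ± 8.55 (Young Bleo), 14.5 ± 3.16 (Aged Sham) and 29.2 ± 11.4 FPKM (Aged Bleo). The ratio of TIMP to metalloproteinase FPKM was 8.65 to 10.9 in Young Sham and 13.2 to 15.0 in Aged Sham. After bleomycin it was 2.28, 2.44, 3.06 and 5.03 in the young libraries and 2.56, 4.79, 9.44 and 8.50 in the aged ones. All Young Bleo ratios were below all Young Sham ratios, and all Aged Bleo ratios were below all Aged Sham ratios. Timp2 alone made up 77.4% to 82.4% of the TIMP sum in Young Sham and 51.7% to 66.2% in Young Bleo. In aged mice these shares overlapped, at 57% to 77.5% in Aged Sham and 41.9% to 71.2% in Aged Bleo. These ratios describe transcripts and not inhibitor bound to enzyme.

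**Figure D4:**
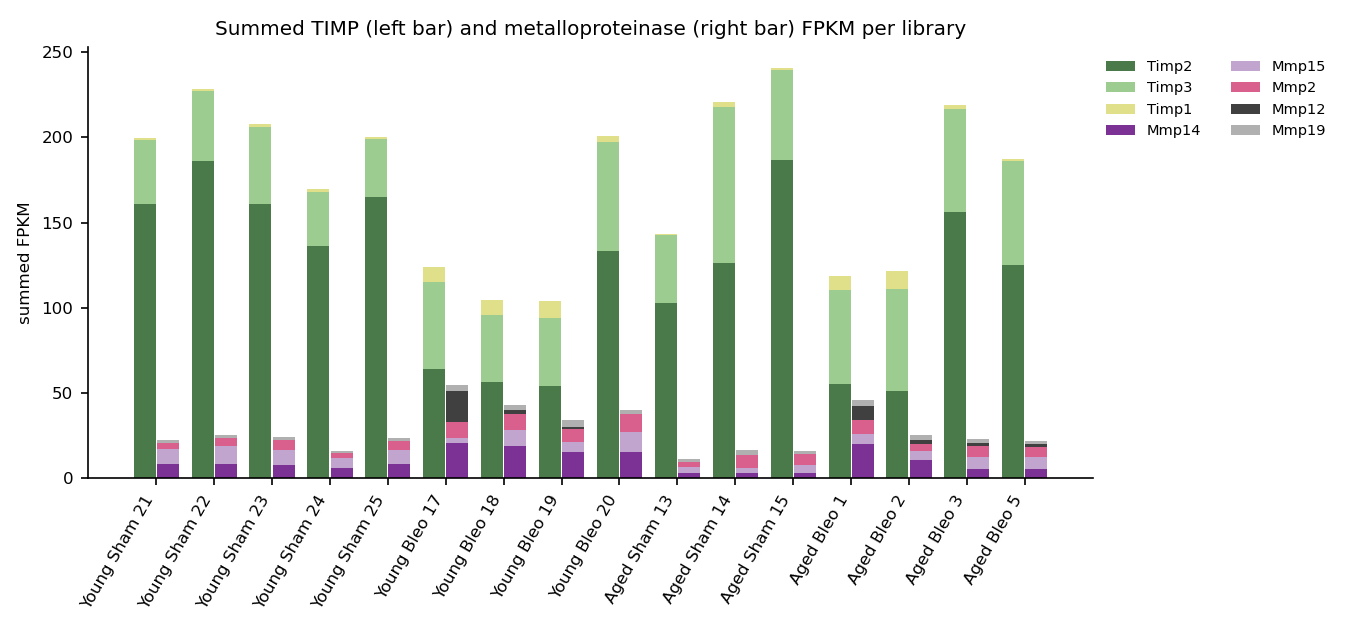
Stacked FPKM (vertical axis, linear from 0) of Timp2, Timp3 and Timp1 (left bar) and of Mmp14, Mmp15, Mmp2, Mmp12 and Mmp19 (right bar) in each of the 16 libraries (Mmp8 and Mmp9 are too low to see). The right bar is tallest in Young Bleo 17 and the left bar shortest in Young Bleo 19.

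Of 17 other genes of the family (16 metalloproteinases and Timp4), 12 had any count, 9 were tested in the pairwise comparisons, and none was called by DESeq2 or edgeR in any of the 6 contrasts. With so few genes tested, 0 calls is near the share of all genes called (13.9% in the young and 5.83% in the aged response by DESeq2). Their median log2 fold change was 0.11 in the young response and -0.14 in the aged response, beside 0.01 for all genes in both. Summed, they had 2972 to 3638 normalized counts in Young Sham and 2830 to 3253 in Aged Bleo.

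A list of 13 genes held activators, docking proteins and further inhibitors. DESeq2 and edgeR each called 3 higher and 2 lower in Young Bleo among 12 tested, where 13.9% and 9.78% of all genes were called. Plat, the tissue plasminogen activator, rose by 1.52 on the log2 scale (SE 0.305, adjusted p = 3.5e-05, edgeR adjusted p = 0.0063). Reck, a membrane-bound inhibitor of several metalloproteinases, fell (log2 fold change -1.47, SE 0.384, adjusted p = 0.0022, edgeR adjusted p = 0.028), from 990 to 1864 normalized counts in Young Sham to 275 to 828 in Young Bleo. Plaur, the urokinase receptor, fell as well (-0.99, SE 0.192, adjusted p = 1.3e-05, edgeR adjusted p = 0.0048). Klkb1, plasma prekallikrein, was at 0 in Young Sham and at 1.73 to 26.0 normalized counts in Young Bleo. In the aged response DESeq2 called 1 higher and 1 lower of the 12, against 5.83% of all genes, and edgeR none, against 0.797%. In the difference of responses DESeq2 called 1 of the 12, against 0.381% of all genes, and edgeR none, against 0.00546%.

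Among 17 ADAM and ADAMTS proteases, which share the metalloproteinase fold and some TIMP inhibitors, DESeq2 and edgeR each called 6 higher and 1 lower in Young Bleo, against 13.9% and 9.78% of all genes called in either direction. Adamts1, which cuts versican and other proteoglycans, rose from 3533 to 6069 normalized counts in Young Sham to 17470 to 23195 in Young Bleo (log2 fold change 2.14, SE 0.417, adjusted p = 1.6e-05, edgeR adjusted p = 0.0069). The aggrecanases Adamts4 and Adamts5 rose with log2 fold changes of 2.43 and 2.45 (edgeR adjusted p = 0.042 for each), and Adamts7 with 2.56 (edgeR adjusted p = 0.021); none of these 3 was above 531 normalized counts in a young library. In the aged response DESeq2 called 3 of the 17, all higher, against 5.83% of all genes in either direction, and edgeR none, against 0.797%. The list's median log2 fold change was 0.16 in the young response and 0.58 in the aged response, beside 0.01 for all genes.

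Likeness of pattern was described over the 16 libraries by the Pearson correlation of log2 normalized counts with 13774 other expressed genes. It is given without a test, since libraries of a group share their treatment, and groups alone raise such values. The genes closest to Mmp12 were Clec12a (r = 0.964), Gpnmb (0.963) and Ccl9 (0.957). Closest to Mmp14 were Fam13c (0.969), Agrn (0.961) and Gramd1b (0.949), and closest to Timp2 were Tmcc2 (0.989), Itgb5 (0.986) and Gnao1 (0.985). For Timp1 they were Gm4735 (0.967), Ppap2a (0.967) and 8430408G22Rik (0.966), for Timp3 Pfkfb3 (0.935), Tacc1 (0.924) and Hpse (0.916), and for Mmp19 Ndrg1 (0.942), Clca1 (0.940) and Gm16439 (0.936). Mmp2 and Mmp15 had weaker matches, with Ddx50 (0.879), Bmp2 (0.878) and Pcsk6 (0.871), and with Enthd2 (0.880), Nfatc3 (0.858) and Sufu (0.856). Among the members themselves, Timp1 and Timp2 had the most negative value (r = -0.89) and Timp1 and Mmp19 the most positive (0.85).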

How the data were processed

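Paired-end reads were aligned by the authors with STAR (version 2.5.2b, per the labels) to mm10 and counted per gene with featureCounts of Subread. The deposited table holds whole-number read counts and FPKM values, which the authors made by scaling fragments for gene length and library total, for 43346 genes and 16 libraries. The strand setting and annotation release are not given in the sources used here. The labels name a SMART-Seq and Nextera library kit and the study's methods a TruSeq kit with poly(A) selection; which was used is not settled. The deposited gene length column was used only for description.

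Counts were tested with DESeq2 (1.42.0, R 4.3.3), the tool the study names, in 1 model of 16 libraries with group as its only term, using a Wald test, Cook's and independent filtering and Benjamini-Hochberg adjustment over all genes. Calls needed an adjusted p no higher than 0.05 and a log2 fold change no smaller in size than 0.5. Each call is given beside edgeR's quasi-likelihood test (4.0.16). Normalized counts are counts divided by DESeq2 size factors. Where every library of the reference group was at or under 3 counts, a fold is a lower bound against 3 counts per library. The fits were tested on simulated counts for Young Bleo against Young Sham, where DESeq2 recovered more of the changed genes than edgeR and also made more false calls. Alternatives were TMM scaling, a filter of 10 counts in 3 libraries, DESeq2 without its filters or with the contrast's libraries alone, limma voom and limma-trend (3.58.1) on log2(FPKM + 0.1) and log2(FPKM + 1) for genes with a mean FPKM of at least 0.1 or all genes, and leaving out each library.

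All 10 members are named. From the other lists a gene is named if both tools called it in a contrast, at most 4 per list and contrast by size, or if it is a marker whose level bears on a member. Pattern likeness took, for members averaging 50 or more normalized counts, the 3 genes at or above that mean with the highest Pearson correlation. The members and lists were chosen with earlier results of these data known.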

Additional observations from a re-analysis of the deposited data

Results flagged for a closer look

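Single libraries stood apart for 2 of the 27 member and group combinations examined (groups of 4 or 5 libraries, log2 normalized counts, gap to the nearest library over the group's range). Chance gives about 1 in 20 for normally spread values, which does not hold for groups of tied zeros. Young Sham 23 had 6.15 normalized counts of Mmp12, from 3 raw counts in the shallowest library, and the other Young Sham libraries had 0. Any single library with a count would have been flagged there. Young Bleo 20 had 298 normalized counts of Timp1, below the 792 to 881 of the other Young Bleo libraries. That library also had the lowest macrophage marker sum of its group (22584 normalized counts). The cause of either value was not tested.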

How the results depend on the processing

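Members called in Young Bleo against Young Sham numbered 5 to 7 under the other settings and 6 to 7 when 1 library was left out. Of all genes, 5.73% to 16.9% and 10.6% to 18.2% were called in these runs. In Aged Bleo against Aged Sham the 2 calls became 1 with limma-trend on log2(FPKM + 1), 0 with no FPKM filter and 0 with limma voom, and 2 to 3 without 1 library. The shares of all genes were 1.73%, 0.316% and 0.289% in these settings, and 2.65% to 8.34% without 1 library. Mmp8 and Mmp9 were under the mean FPKM filter and so were not tested in 2 of the 3 limma-trend settings. The 4 calls in Aged Sham against Young Sham became 0 with edgeR, limma voom and every limma-trend setting, where Mmp9 was tested only with no FPKM filter, and 0 to 5 without 1 library (0 without Aged Sham 14, 2 without Aged Sham 15, where Mmp9 had no adjusted p). Of all genes, 0.862% were called with edgeR, 0.568% with limma voom and 0.516% to 0.986% with limma-trend. The share was 2.06% without Aged Sham 14 and 3.97% without Aged Sham 15. The single call in Aged Bleo against Young Bleo, Mmp9, became 0 with edgeR, limma voom and limma-trend with no FPKM filter, and the count was 0 to 2 without 1 library. The shares of all genes there were 0.0437%, 0.158% and 0.0829%, and 0.592% to 2.62% without 1 library. The 6 calls in Aged Bleo against Young Sham became 3 with limma voom, 1 with limma-trend on log2(FPKM + 0.1) or log2(FPKM + 1) and 2 with no FPKM filter, and 3 to 7 without 1 library, with 3 without Aged Bleo 2. The shares of all genes were 6.11% with limma voom, 7.07% and 5.53% with these 2 limma-trend settings and 2.81% with no FPKM filter. Without 1 library they were 5.71% to 12.4%, with 5.9% without Aged Bleo 2. For the difference of responses the count was 0 to 1 without 1 library, and the share of all genes was 0.169% to 1.23%. With only 10 members, 0 calls is near the share of all genes where that share is small. The causes were not tested. Over all genes, DESeq2 called 1080 in the aged response and 621 between sham groups, and edgeR 146 and 158. The DESeq2 counts were 474 without Aged Bleo 1 and 657 without Aged Sham 15 in the aged response, and 369 without Aged Sham 14 between sham groups.

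No member called by DESeq2 changed direction under any alternative run. Among values that were not called, the aged response of Mmp2 turned to 0.13, 0.11 and 0.13 with the 3 limma-trend settings and that of Timp3 to 0.04, 0.03 and 0.04. Mmp12 in Aged Bleo against Young Bleo turned to 0.37, 0.04 and 0.37 with them and 0.54 with limma voom. The difference of responses turned to 0.16, 0.01 and 0.16 for Mmp12, and to 0.53 (no FPKM filter) and 1.09 (limma voom) for Mmp8. The median log2 fold change of all genes was 0.006 in the aged response and 0.023 between sham groups with DESeq2, and 0.119 and -0.116 with limma-trend on log2(FPKM + 0.1), which also changes the test and the genes tested. Without 1 library, signs turned for Mmp15 (-0.49 to 0.02) in the young response, Mmp2 (-0.32 to 0.22), Mmp9 (-0.20 to 0.83) and Timp3 (-0.39 to 0.24) in the aged response, Timp1 (-0.23 to 0.78) and Timp2 (-0.32 to 0.04) between sham groups, Mmp12 (-1.51 to 1.31) and Mmp15 (-0.43 to 0.07) between injured groups, Mmp14 (-0.05 to 0.70) in Aged Bleo against Young Sham and Mmp8 (-4.15 to 0.14) in the difference of responses. No paired analysis was possible because replicate numbers do not repeat between groups. Aged Sham holds 3 libraries, and levels of Mmp8 and Mmp9 rest on at most 124 raw counts per library.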
